A study of Homo sapiens with 6 samples.

Results

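The replication-dependent histone genes supply the H1, H2A, H2B, H3 and H4 proteins that package newly made DNA. They were taken as every protein-coding gene of the count table whose symbol is H1-1 to H1-6, or H2AC, H2BC, H3C or H4C followed by a number. The rule found 69 genes among the 63086 rows of the table, namely 6 H1, 17 H2A, 18 H2B, 13 H3 and 15 H4 genes. Of these, 55 lie in the 6p22 region of chromosome 6, 11 at 1q21, 2 at 1q42 and 1 at 12p12. The rule used names only and no measured value, but the set was chosen with earlier results of these data known.

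Replication-dependent histone mRNAs are made mainly in S phase and are degraded when DNA synthesis stops. Most of them have no introns and end in a conserved stem-loop instead of a poly(A) tail; SLBP binds the stem-loop and the U7 snRNP directs the cut downstream of it. H2A, H2B, H3 and H4 form the core of the nucleosome, and H1 binds the linker DNA between nucleosomes.

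The libraries came from HEK293T, an established human embryonic kidney line. In 3 libraries (0Q) the cells had been kept without queuine, the base that is built into the anticodon of certain tRNAs as queuosine, in DMEM with 10% dialyzed serum. In the other 3 (100Q) such queuine-depleted cells had been given queuine; the labels put the dose at 100 nM in one field and at 1 µM for 24 hours in another, so the dose is uncertain. The labels say that both conditions were grown in triplicate but not whether these were separate cultures, and each p-value below reflects only how far these libraries vary, which may be technical variation.

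Estimated counts per library ran from 4023956 to 11398835, with both extremes in 100Q. Markers known in this line were present, among them NEFM at a mean of 187 CPM (counts scaled to equal library size) without queuine and 168 with it, and PTPRC and CD3E, which mark blood cells, were at 0 in all 6 libraries. ALB and PECAM1 averaged at most 0.14 CPM. COL1A1, listed as a marker of fibroblasts, was present, with means of 27.9 (0Q) and 29.9 CPM (100Q). EYA1, on the list of markers of this line, had an unadjusted p under 0.05 in edgeR's quasi-likelihood test, with a log2 fold change of -0.58. Its part in the histone values was not tested. In bulk RNA, fewer cells in S phase and less histone mRNA per cell cannot be told apart.

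The stem-loop was searched for in the 200 genome bases after each stop codon, as 6 paired bases that open with GG and close with CC around a 4-base loop that opens with TT. It was found in 64 of the 69 histone genes, against 7 of 19850 other protein-coding genes (0.0353%). Those 7 included H2AX, H3-4 and H3-7, histone genes outside the naming rule. In the 64 genes the stem-loop began 22 to 67 bases after the stop codon. H2AC11, H2AC15, H2BC10, H3C6 and H4C13 had no match to these letters in this window. The sequences of 6 genes show the forms that occurred, 5′ to 3′ on the gene's strand, with the stem-loop in capitals (hg38).
H1-4: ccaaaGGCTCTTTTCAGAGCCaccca
H1-2: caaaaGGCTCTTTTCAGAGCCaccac
H2BC12: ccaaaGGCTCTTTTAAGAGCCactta
H2AC20: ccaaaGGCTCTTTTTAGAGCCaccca
H4C1: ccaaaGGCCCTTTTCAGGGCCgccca
H4C14: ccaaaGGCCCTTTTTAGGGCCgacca
The form in H1-4 and H1-2, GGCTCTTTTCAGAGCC, was the commonest, in 40 genes. The form in H2BC12, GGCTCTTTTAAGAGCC, was in 9 genes, and the form in H2AC20, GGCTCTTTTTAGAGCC, was in that gene alone. The forms in H4C1 (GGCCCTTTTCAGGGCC, 10 genes) and H4C14 (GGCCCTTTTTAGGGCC, 4 genes) were found in the 14 H4 genes with a stem-loop and in no other class.

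Promoters were read from RefSeq (GRCh38.p14), from 250 bases before to 50 bases after the start, for the 64 histone genes with an entry. The window listed for H3C4 is that of H2AC7 and was counted for H2AC7 only, which leaves 63. The letters TATAA on the gene's strand were in 79.4% of them, against 15.5% of 27305 promoters of all genes. CCAAT, on either strand, was in every H1, H2A, H2B and H3 promoter read and in 3 of 13 H4 promoters, against 35.7% of all promoters. The octamer ATTTGCAT, on either strand, was in 14 of 18 H2B and 11 of 16 H2A promoters and in no H1, H3 or H4 promoter read, against 1.80% of all promoters. Windows of neighbouring H2A and H2B genes transcribed in opposite directions can overlap. A CCAAT or octamer in such an overlap was counted for both genes, as was the octamer of H2AC11 and H2BC11 and that of H2AC6 and H2BC4. The H2A and H2B counts of these motifs are therefore not independent. The letters AAACACA of the H1 box, on either strand, were in all 6 H1 promoters, 1 H2A and 2 H3 promoters, against 5.76% of all promoters. No motif is contained in another, and a match is a description of the sequence only. The promoters of H1-4 (chr6:26156079-26156378, plus strand) and H2BC12 (chr6:27146809-27147108, minus strand) are shown with every motif match in capitals. They were chosen because H1-4 had the smallest p among the histone genes and H2BC12 the highest level per kilobase of merged exons.
H1-4: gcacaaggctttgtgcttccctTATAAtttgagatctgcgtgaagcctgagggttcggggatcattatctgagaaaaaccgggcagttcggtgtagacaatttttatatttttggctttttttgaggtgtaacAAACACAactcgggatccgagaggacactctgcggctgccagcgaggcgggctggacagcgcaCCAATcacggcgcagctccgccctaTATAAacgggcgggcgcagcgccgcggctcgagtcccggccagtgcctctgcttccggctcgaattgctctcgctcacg
H2BC12: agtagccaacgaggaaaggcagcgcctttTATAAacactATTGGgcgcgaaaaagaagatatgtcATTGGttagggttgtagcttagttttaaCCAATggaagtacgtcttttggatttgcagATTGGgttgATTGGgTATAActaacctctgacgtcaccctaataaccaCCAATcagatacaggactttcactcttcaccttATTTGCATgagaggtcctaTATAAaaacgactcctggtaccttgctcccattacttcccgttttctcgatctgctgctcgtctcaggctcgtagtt
In H1-4 an H1 box, a CCAAT and a TATAA follow one another toward the start, their first bases at positions -117, -54 and -29 (position -1 is the base before the start). H2BC12 has the octamer at -46 and a TATAA at -27. The annotated start of H2AC12, which is transcribed the other way, lies at base 27147106, inside the H2BC12 window.

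Queuosine tRNAs read the codons NAC and NAU of tyrosine, histidine, asparagine and aspartate. These codons made up 9.26% of histone codons, against 13.7% in the coding sequences of 19686 protein-coding genes. Class H1 had the lowest share, 2.92%, followed by H3 at 7.35%, H4 at 10.7%, H2B at 11.2% and H2A at 11.6%. Of these codons 77.3% ended in C in the histone genes and 53.9% in all protein-coding genes.

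Histone genes held 0.0278% to 0.0361% of the counts of a library, or 1118 to 3658 counts. How the RNA was selected before sequencing is not given in the sources used here, which bears on mRNAs that mostly lack a poly(A) tail. Over all 6 libraries, H2B genes held 33.3% of these counts, H4 genes 24.2%, H2A genes 18.8%, H1 genes 15.2% and H3 genes 8.48%. The 10 most counted genes held 62.7%. The 51 genes with an annotated span of up to 1000 bases (compact annotation) held 53.7%, and the 18 genes with a longer span held 46.3%. The counts do not separate stem-loop-ended from longer transcripts. H1-6, H2AC1, H2BC1, H2BC3, H4C7, H4C11 and H4C13 (7 genes) were at 0 in all 6 libraries.

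Per kilobase of merged exons, H2BC12 was the most abundant, at 78.5 CPM per kilobase. It was followed by H1-2 at 39.6, the H2AC18 and H2AC19 pair together at 36.7, the H4C14 and H4C15 pair together at 27.6, H1-4 at 27.0, and the H3C14 and H3C15 pair together at 21.4. H4C1 stood at 18.9 and H4C5 at 15.5. This order depends on the length used. The merged exons of H4C14 and of H4C15 total 1878 bases, against 396 in the canonical transcript, which lowers their level per kilobase.

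The summed level of all histone genes was 345, 365 and 332 CPM in the 0Q libraries and 338, 281 and 314 CPM in the 100Q libraries, scaled by TMM. The groups overlapped, and the lowest value was that of 100Q replicate 2. The 0Q mean was 347 ± 16.7 CPM and the 100Q mean 311 ± 28.7 CPM (SD, n = 3 each), a log2 ratio of -0.16. No p is given for sums over these genes.

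H1 genes summed to 57.4, 65.5 and 51.6 CPM in 0Q and to 44.5, 52.7 and 36.6 CPM in 100Q. The highest 100Q library lay above the lowest 0Q library, and the log2 ratio of the means was -0.38. It ranged from -0.26 without 100Q replicate 3 to -0.52 without 100Q replicate 2.

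H2B genes summed to 112, 114 and 116 CPM in 0Q and to 106, 91.1 and 111 CPM in 100Q. This was the class whose groups did not overlap, with every 100Q library lower; the log2 ratio was -0.15, and -0.07 without 100Q replicate 2. H2A genes summed to 64.1, 69.6 and 60.8 CPM against 65.3, 56.5 and 57.6 CPM, with overlapping groups and a log2 ratio of -0.12. Leaving out 0Q replicate 2 gave -0.06, and leaving out 100Q replicates 1 and 2 in turn gave -0.18 and -0.08.

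H3 genes summed to 26.1, 30.8 and 30.5 CPM in 0Q and to 27.9, 19.1 and 29.0 CPM in 100Q, a log2 ratio of -0.20. Only 100Q replicate 2 lay below the 0Q libraries, and without it the ratio was -0.04; without 100Q replicate 3 it was -0.31. H4 genes summed to 85.3, 84.7 and 73.0 CPM in 0Q and to 94.2, 61.3 and 79.3 CPM in 100Q. Here the highest and the lowest library were both 100Q, and the log2 ratio of -0.05 was not stable in size or sign. Leaving out 100Q replicate 2 gave 0.10, leaving out 100Q replicate 1 gave -0.21, and leaving out 0Q replicates 1 to 3 in turn gave -0.01, -0.02 and -0.12. A joint correction for GC content and length gave class ratios of -0.36 for H1, -0.04 for H2A, -0.07 for H2B, -0.12 for H3 and 0.04 for H4.

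**Figure D1:**
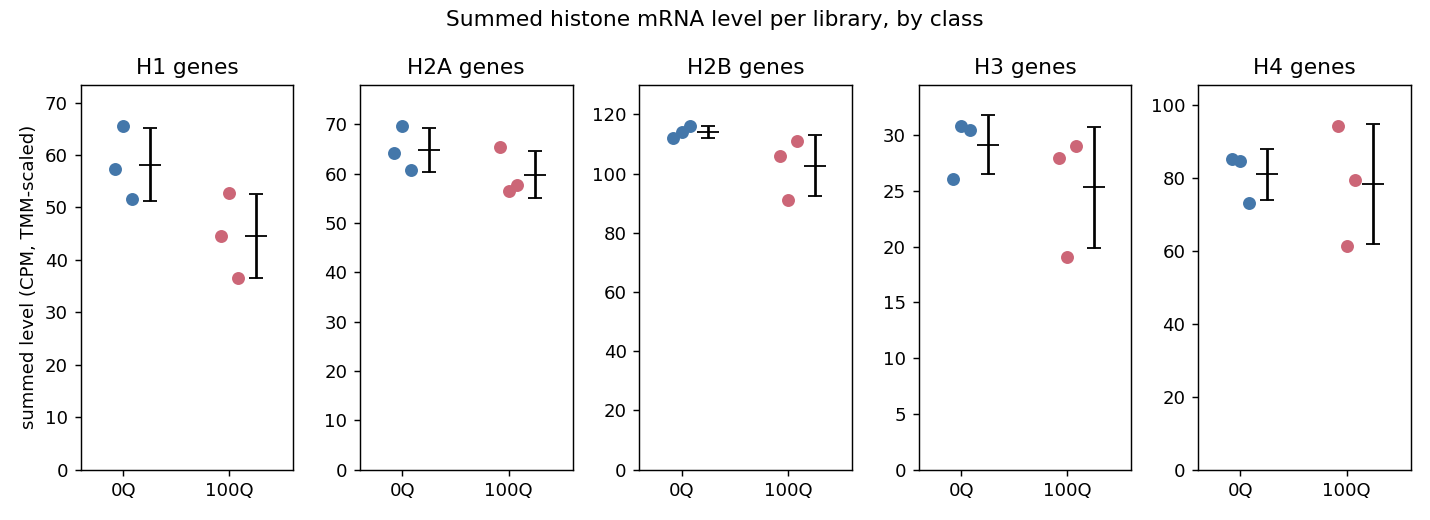
Summed level of each histone class (vertical axis, CPM after TMM scaling) in the 3 libraries of 0Q and of 100Q; points are libraries, and the bars beside them are the mean and SD. The H2B sums are the ones that do not overlap, at 112 to 116 CPM against 91.1 to 111 CPM.

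Replication-independent variants, most of which can be made outside S phase, summed to 2690 ± 51.9 CPM (0Q) against 2680 ± 81.3 CPM (100Q; SD, n = 3 each). H2AX, which is on that list, was 1 of the 7 other genes with the stem-loop. A list of 12 S-phase genes summed to 3010 ± 90.5 CPM and 2870 ± 106 CPM; 10 of the 12 had a negative log2 fold change (50.6% of all tested genes did), with a median of -0.06. PCNA, the sliding clamp of DNA polymerases, had the 1 unadjusted p under 0.05 among them in edgeR (log2 fold change -0.17 ± 0.07, SE; adjusted p = 0.987). The part of cell cycle in the histone values was not tested.

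After the filter on low counts 35 histone genes could be tested, namely 2 H1, 9 H2A, 10 H2B, 5 H3 and 9 H4 genes; 34 could not. Of the 35, 24 passed the minimum of 1.35 CPM in every library, and 6 passed it in fewer than 3 libraries of each group. Another 3 (H2AC12, H2AC13 and H4C3) passed it in all 0Q but not all 100Q libraries, and 2 in all 100Q but not all 0Q libraries. The 95% interval of the fold change stayed within 2-fold either way for 12 genes and within 1.5-fold for 4.

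None of the 35 passed an adjusted p of 0.05 in edgeR's quasi-likelihood test, where 0.0134% of 14905 genes did; the lowest adjusted p was 0.917. DESeq2 and limma-voom also called 0. At an unadjusted p under 0.05 in edgeR, 3 were lower in 100Q (H1-4, H2AC12 and H2BC5), beside 2.23% of all genes, and 0 were higher, beside 2.49% of all genes. Of these, H2AC12 had passed the filter through its 0Q libraries, where it was higher. A negative log2 fold change was found for 21 of the 35 (60%), against 50.6% of all genes. The median was -0.16, with a range of -1.28 to 1.08, against a median of -0.0027 over all genes tested.

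The median moved when single libraries were left out and under a joint correction for GC content and length. Leaving out 0Q replicate 2 gave -0.04, and leaving out 100Q replicate 2 gave -0.06. The median deviation of the tested histone genes from their mean over libraries was -0.30 (log2) in 100Q replicate 2 and lay between 0.01 and 0.13 in the other 5. Tested histone genes had a median GC content of 58.6% and a median length of 486 bases, against 48.8% and 3149 bases over all tested genes. After the joint correction the histone median was -0.04 and 19 of the 35 were negative (54.3%), against a median of 0.01 and 47% negative over all genes.

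**Figure D2:**
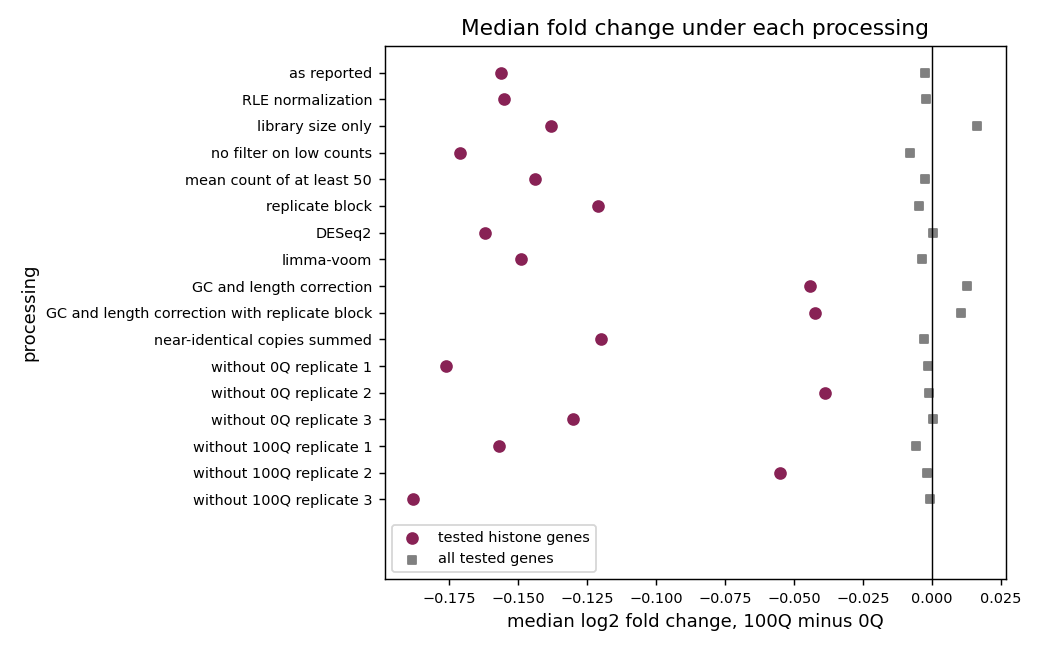
Median log2 fold change, 100Q minus 0Q (horizontal axis), of the tested histone genes and of all tested genes under each way of processing (vertical axis). The histone median was -0.16 as reported and closest to 0 in the fits that left out 0Q replicate 2 or corrected for GC content and length.

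By class, the medians were -0.44 for H1 (2 of 2 negative), -0.39 for H2A (6 of 9), -0.13 for H2B (7 of 10), -0.07 for H3 (3 of 5) and 0.11 for H4 (3 of 9). The differences between classes were not tested. Genes with compact annotation had a median of -0.24 (14 of 20 negative) and those with a longer annotated span 0.03 (7 of 15). At 6p22 the median over 24 genes was -0.16, and at 1q21 it was -0.18 over 8 genes.

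**Figure D3:**
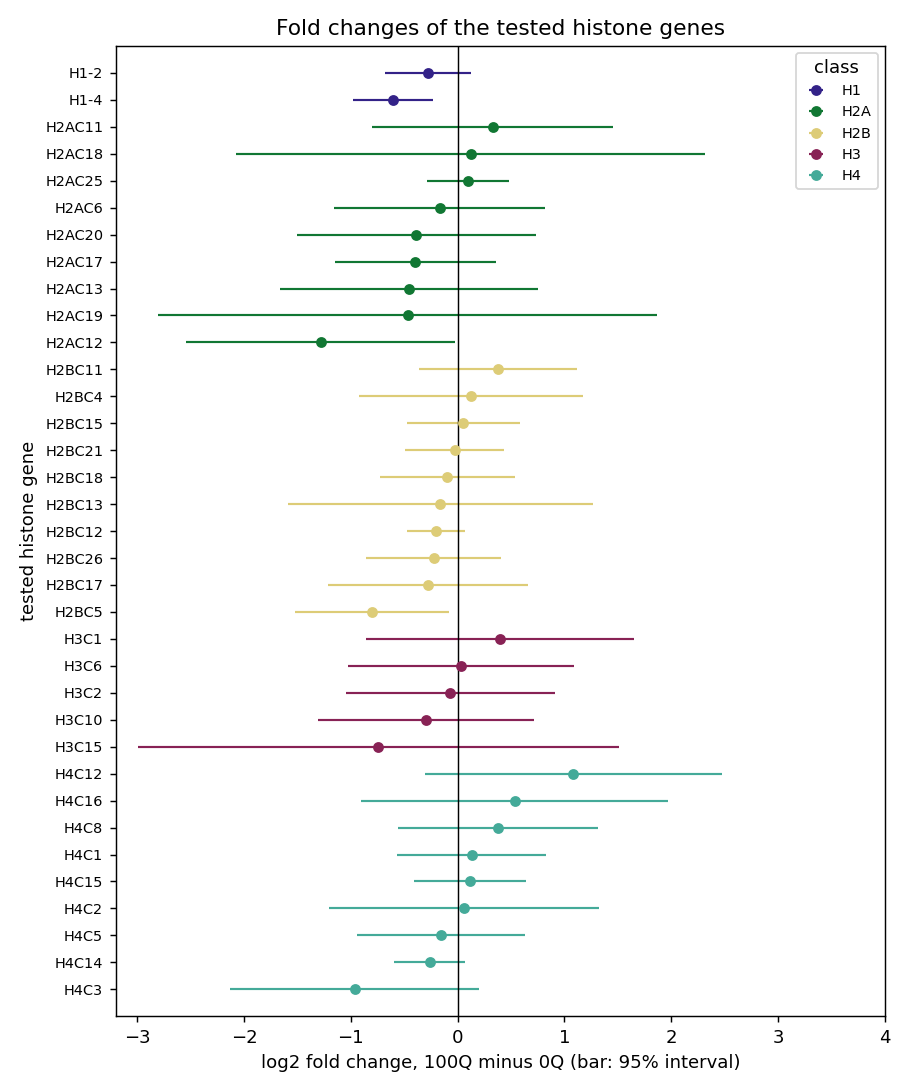
Log2 fold change, 100Q minus 0Q (horizontal axis), of the 35 tested histone genes (vertical axis), coloured by class, with 95% intervals from edgeR. The intervals of H1-4, H2AC12 and H2BC5 lie below 0, and those of the other genes cross 0.

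Linker histones came from 2 tested genes. H1-4 (ENSG00000168298.7, chr6:26156329-26157115, plus strand, 1 exon) was at 27.8, 24.3 and 24.4 CPM in 0Q and at 15.6, 20.8 and 14.7 CPM in 100Q. All 3 of its 100Q libraries lay below the 0Q libraries. Its log2 fold change was -0.60 ± 0.18 (SE; 95% interval -0.98 to -0.23), with an unadjusted p of 0.00375 and an adjusted p of 0.917 in edgeR. Its unadjusted p stayed under 0.05 under each alternative run, with log2 fold changes of -0.49 to -0.76. H1-2 (chr6:26055740-26056470, minus strand) was at 28.1, 40.3 and 26.0 CPM in 0Q and at 27.5, 30.4 and 21.3 CPM in 100Q. Its groups overlapped, and its log2 fold change was -0.28 ± 0.19 (95% interval -0.68 to 0.12). Leaving out 0Q replicate 2 gave -0.06, and leaving out 100Q replicate 3 gave -0.12.

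Among H2A genes, H2AC12 (chr6:27147106-27147562, plus strand) was at 3.77, 4.40 and 2.38 CPM in 0Q and at 0.578, 1.26 and 2.23 CPM in 100Q. The groups were apart by the gap between 0Q replicate 3 and 100Q replicate 3. Its log2 fold change was -1.28 ± 0.59, with an unadjusted p of 0.0468 and an adjusted p of 0.987 in edgeR, from 114 counts in all. Leaving out 100Q replicate 3 gave -1.95, and the unadjusted p was not under 0.05 with the replicate block, limma-voom, library size only, or the GC and length correction. Nor was it under 0.05 in edgeR when 0Q replicate 1 or 2, or 100Q replicate 1 or 2, was left out. H2AC25 (chr1:228434777-228457873, minus strand), at 1q42, was at 18.4, 17.6 and 17.6 CPM against 22.9, 18.3 and 16.6 CPM. Its log2 fold change was 0.10 ± 0.18, and -0.05 without 100Q replicate 1. H2AC17 was at 6.98, 5.41 and 6.60 CPM in 0Q and 4.81, 5.02 and 4.63 CPM in 100Q. Every 100Q value was lower, but the interval of its log2 fold change ran from -1.15 to 0.36; its exons overlap those of H3C12.

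Among H2B genes, H2BC12 (ENSG00000197903.8, chr6:27146361-27146855, minus strand) was at 40.1, 41.0 and 43.9 CPM in 0Q and at 32.3, 36.9 and 38.9 CPM in 100Q. The groups did not overlap. Its log2 fold change was -0.20 ± 0.13 (95% interval -0.47 to 0.07), the narrowest interval of the tested histone genes, and -0.11 after GC and length correction. H2BC5 (chr6:26158122-26171349, plus strand), the next histone gene after H1-4 on that strand, was at 8.79, 10.4 and 7.92 CPM in 0Q and at 3.85, 4.02 and 7.21 CPM in 100Q. Here 100Q replicate 3 came near the 0Q libraries, and the log2 fold change was -0.80 ± 0.34 (unadjusted p = 0.0323, adjusted p = 0.987 in edgeR). Without 100Q replicate 3 it was -1.20. With GC and length correction its unadjusted p in edgeR was not under 0.05. The same held when 0Q replicate 1 or 2, or 100Q replicate 1 or 2, was left out. H2BC26, which starts beside H2AC25, was at 8.38, 7.55 and 7.66 CPM against 6.74, 6.78 and 6.69 CPM, with a log2 fold change of -0.22 ± 0.30. H2BC21, H2BC15 and H2BC18 had log2 fold changes of -0.03 ± 0.22, 0.05 ± 0.25 and -0.10 ± 0.30, and each of the 3 changed sign in some alternatives.

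All 100Q libraries lay below all 0Q libraries for 7 of the 35 genes, beside 5.20% of all genes, and above them for 0, beside 5.39% of all genes. The 7 were H1-4, H2AC12, H2AC17, H2BC5, H2BC12, H2BC26 and H4C3. H2AC12 and H4C3 had passed the filter through their 0Q libraries, so their place among the 7 is not independent of the filter. The library with the lowest summed histone level, 100Q replicate 2, also had the fewest counts (4023956). Among these 7 genes it was the lowest 100Q library for H4C3 only.

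**Figure D4:**
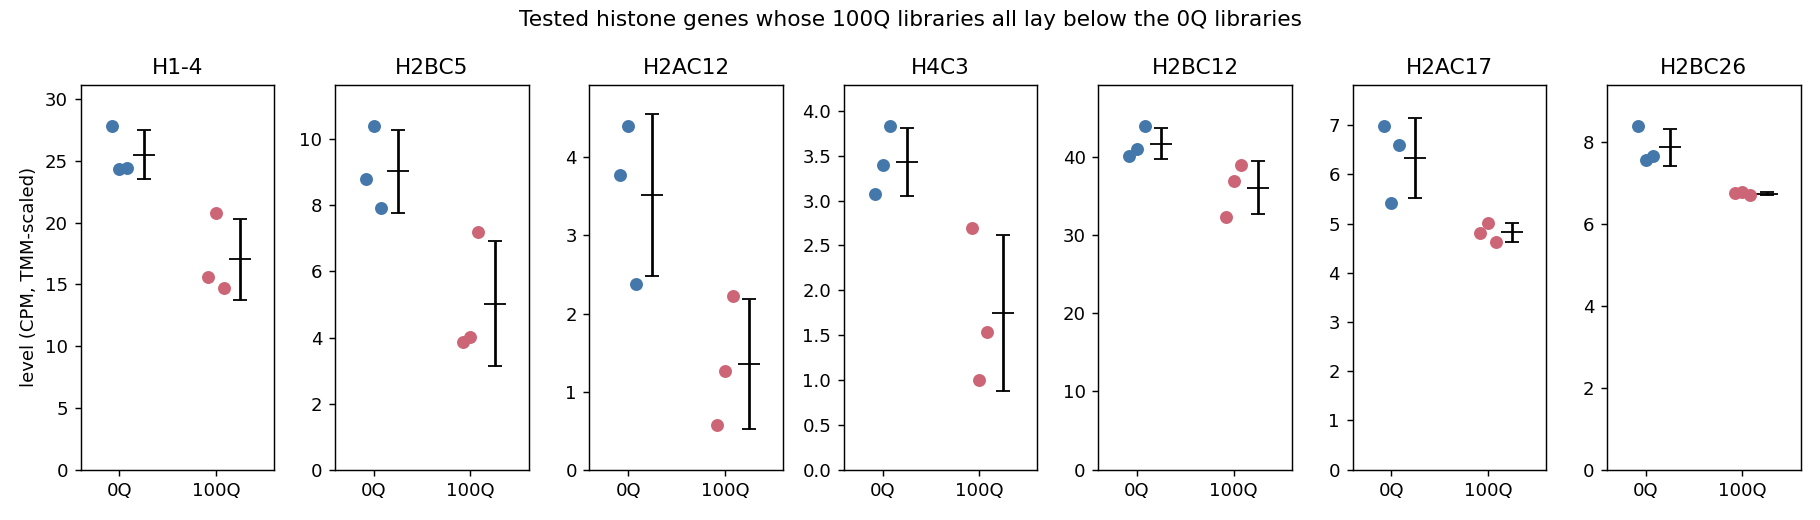
Level (vertical axis, CPM after TMM scaling) of the 7 tested histone genes whose 100Q libraries all lay below the 0Q libraries; points are libraries, and bars are the mean and SD (n = 3). The gap is smallest in H2AC12, between 2.38 and 2.23 CPM, and H1-4 has the smallest p of the 7.

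Among H3 genes no tested gene had an unadjusted p under 0.05 in edgeR. H3C2 was at 3.63, 3.52 and 5.68 CPM against 6.16, 2.76 and 3.35 CPM, with overlapping groups and a log2 fold change of -0.07 ± 0.46. H3C10 had -0.30 ± 0.47.

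Among H4 genes, H4C3 was at 3.07, 3.40 and 3.83 CPM in 0Q and at 2.70, 1.00 and 1.54 CPM in 100Q, a log2 fold change of -0.96 ± 0.55 (95% interval -2.13 to 0.20). In the other direction H4C12 was at 0.977, 0.755 and 1.72 CPM against 2.50, 3.77 and 1.37 CPM, and its interval of -0.31 to 2.48 included 0. H4C1 and H4C5 had log2 fold changes of 0.13 ± 0.33 and -0.16 ± 0.37. The 2 most counted H4 genes, H4C14 and H4C15, are near-identical copies, with log2 fold changes of -0.26 ± 0.16 and 0.11 ± 0.25.

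Assignment of reads between near-identical copies at 1q21 differed between libraries. H2AC18 held 53.9%, 100% and 0% of the counts of the H2AC18 and H2AC19 pair in the 0Q libraries and 100%, 100% and 0% in the 100Q libraries. H3C14 held 0%, 100% and 0% of its pair with H3C15 in 0Q and 0%, 0% and 100% in 100Q. Values of these single copies are uncertain, and the SE of the log2 fold change exceeded 1 for H2AC18 (0.12 ± 1.03), H2AC19 (-0.47 ± 1.10) and H3C15 (-0.74 ± 1.06). H4C14 held 58.5%, 64.4% and 64.1% of its pair with H4C15 in 0Q and 56.2%, 68.9% and 48.8% in 100Q.

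**Figure D5:**
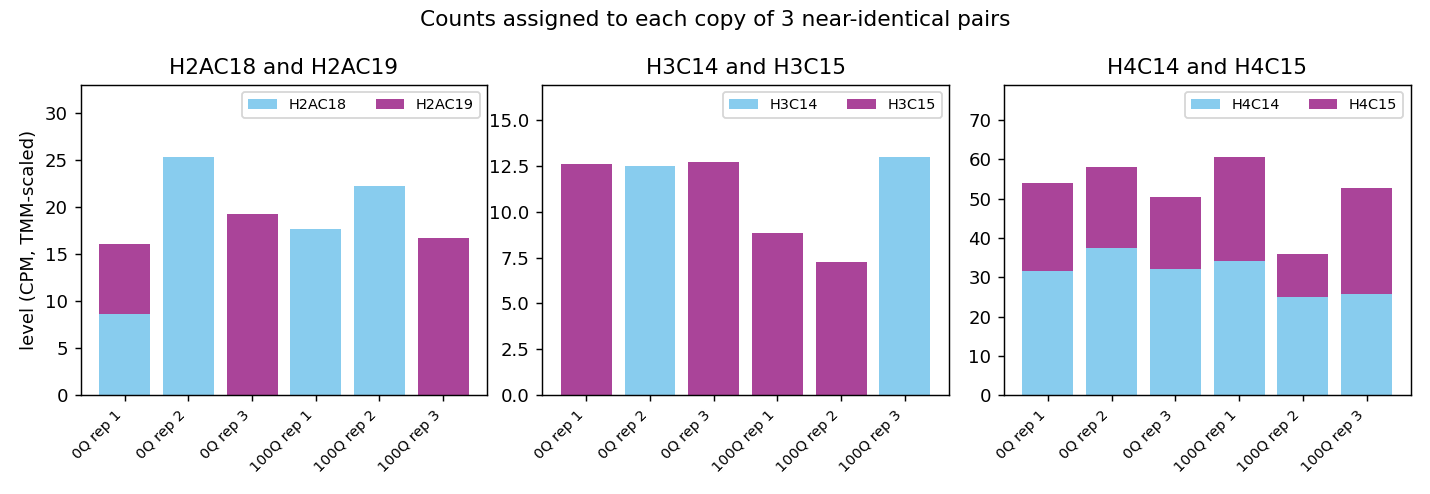
Level (vertical axis, CPM after TMM scaling) assigned to each copy of 3 near-identical pairs in each of the 6 libraries (horizontal axis), stacked. The H2A and H3 pairs switch between copies from library to library, while H4C14 holds 48.8% to 68.9% of its pair.

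Summed, the pairs gave narrower estimates. H2AC18 and H2AC19 together were at 16.2, 25.4 and 19.3 CPM in 0Q and at 17.7, 22.3 and 16.7 CPM in 100Q, a log2 fold change of -0.12 ± 0.20. H3C14 and H3C15 together were at 12.5, 12.4 and 12.7 CPM in 0Q and at 8.83, 7.28 and 13.0 CPM in 100Q. In the H3 pair 2 of the 3 100Q libraries were lower and 1 was higher than every 0Q library, and the log2 fold change was -0.33 ± 0.25. H4C14 and H4C15 together had -0.11 ± 0.15 (95% interval -0.43 to 0.22), with sums of 54.0, 58.0 and 50.3 CPM against 60.6, 35.9 and 52.5 CPM.

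Of the 34 untested genes, 27 had at least 1 count, and apart from H3C14 none had over 45.72 counts in all. Singled out after their values were seen, H2BC7 was counted 4, 2 and 10 times in the 0Q libraries, and 1, 0 and 1 times in the 100Q libraries. That is a depth-scaled ratio of 0.136 with a 95% interval of 0.0152 to 0.579 for counting error only. H3C13, counted 2.29, 16.17 and 13.75 times against 2.15, 0 and 11.36 times, gave 0.476 (0.235 to 0.919). H3C12, counted 1, 8 and 3 times against 11, 3 and 10.88 times, gave 2.27 (1.10 to 4.96). The ratio of H2BC6, 2.90 (1.08 to 9.06), rested on 100Q replicate 1: its estimated counts were 6.22, 0 and 0 in 0Q and 14.53, 1 and 0 in 100Q. Exons of 11 histone genes overlap exons of another gene, among them H2BC4 with HFE and H3C12 with H2AC17, and the strand setting of the counting is not given in the sources used here.

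The 5 lists of genes that act on histone genes or their products were set beside these values, and no gene of them passed an adjusted p of 0.05 in edgeR. Their counts of negative log2 fold changes stand beside the 50.6% of all tested genes. Of 21 genes of stem-loop binding and 3′ processing, 0 had an unadjusted p under 0.05, with 12 negative and a median log2 fold change of -0.03. SLBP had mean levels of 91.1 ± 6.94 CPM (0Q) and 89.7 ± 4.50 CPM (100Q; SD, n = 3 each). LSM10, a protein of the U7 snRNP, had -0.32 ± 0.19, and ZNF473, which binds the stem-loop complex, -0.20 ± 0.16.

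Of 14 genes of histone gene transcription, 1 was higher and 1 lower at an unadjusted p under 0.05 in edgeR, beside 2.49% and 2.23% of all genes. CRAMP1, reported to act on linker histone genes, was at 47.7, 48.3 and 41.6 CPM in 0Q and at 61.4, 59.5 and 61.4 CPM in 100Q. All 100Q libraries were higher, and its log2 fold change was 0.41 ± 0.11 (unadjusted p = 0.00232, adjusted p = 0.815 in edgeR). COIL, the scaffold protein of Cajal bodies, had -0.30 ± 0.13 (unadjusted p = 0.0377, adjusted p = 0.987 in edgeR) with overlapping groups, and -0.19 when 0Q replicate 3 was left out. NPAT, the cyclin E-CDK2 substrate that activates histone transcription, had -0.05 ± 0.13.

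Of 13 genes of histone mRNA decay, 0 had an unadjusted p under 0.05 in edgeR and 8 were negative. ERI1, an exonuclease that trims histone mRNA ends, had 0.20 ± 0.19, and ATR, a replication checkpoint kinase, 0.15 ± 0.11. Of 17 histone chaperones and importers, 0 had an unadjusted p under 0.05 in edgeR and 14 were negative, with a median of -0.04. IPO4, an importin of H3 and H4, had -0.14 ± 0.09 and ATRX, a remodeller that deposits H3.3, -0.13 ± 0.11. Of 11 tested replication-independent variants, 0 had an unadjusted p under 0.05 in edgeR and 5 were negative. MACROH2A1, a variant of H2A with a macro domain, had 0.16 ± 0.08 with all 100Q libraries higher, and the linker variant H1-10 had 0.13 ± 0.09.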

How the data were processed

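The authors deposited 1 table of estimated counts by Ensembl gene, not normalized, for 3 libraries of 0Q and 3 of 100Q. FastQC, STAR and RSEM are named, without versions, in the submitters' processing notes; per the series' design text the build was hg38. Not given in the sources used here were the annotation, the strand setting and any use of molecular identifiers. Gene names, coordinates and coding sequences came from GENCODE 44; 62541 of 63086 identifiers matched.

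Estimated counts were rounded, filtered with filterByExpr (minimum count 10), scaled by TMM and tested in edgeR 4.0.16 (R 4.3.3) by the quasi-likelihood test of 100Q against 0Q, with Benjamini-Hochberg adjustment over 14905 genes and a threshold of 0.05. DESeq2 1.42.0 and limma 3.58.1 (voom) were alternatives, as were other scaling, filters, a correction for GC content and length, summed copies and leaving out each library. The edgeR test was checked on simulated data, where it recovered 56% of genes changed 1.5-fold and 80% of those changed 2-fold. Genes at low levels were not among those changed, so the check does not cover histone genes with few counts. Library totals were 4023956 to 11398835 counts; intervals of count ratios cover counting error only. No library was taken for a copy of another, since counts within groups gave chi-square values of 5.23 to 14.4 times their degrees of freedom.

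The genes named are the 4 with the most counts in each class (where that many were tested), all with an unadjusted p under 0.05, and the 2 with the smallest p in each of the 5 lists; others were named after their values were seen. The members and lists were chosen with earlier results of these data known.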

Additional observations from a re-analysis of the deposited data

How the results depend on the processing

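The number of genes of the whole table past the threshold was 2 in edgeR, 71 with no filter on low counts, 1 with a mean count of at least 50, 14 in DESeq2, 1 in limma-voom, 4 with GC and length correction, 5 with that correction and the replicate block, and 0 to 6 when 1 library was left out. No tested histone gene was called under any of these. The count of histone genes lower at an unadjusted p under 0.05 was 3 in edgeR, 2 (H1-4 and H2BC5) with library size only, a mean count of at least 50, the replicate block or limma-voom, 1 with GC and length correction, 1 with that correction and the replicate block (H1-4 each time), and 1 to 4 with 1 library left out. The libraries whose omission left 1 (H1-4) were 0Q replicates 1 and 2 and the second of 100Q. Without 100Q replicate 2, 1 histone gene was also higher at that level in edgeR, and under the other settings 0 were. The histone median log2 fold change stayed negative throughout, between -0.19 and -0.04; with the replicate block it was -0.12. Same-numbered libraries had correlations of -0.02, 0.00 and 0.21 in their deviations from the group means, so the numbers were not taken as pairs.

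Signs that changed belonged to genes with intervals that included 0. With limma-voom the log2 fold change was -1.92 for H2AC18, 0.0524 for H2BC21 and -0.0278 for H2BC15. It was -0.12 for H2AC18 when near-identical copies were summed. With GC and length correction it was 0.00284 for H2BC18 and 0.016 for H3C2. With 1 library left out, it ranged from -0.0451 to 0.21 for H2AC25, -0.51 to 1.56 for H2AC18, -8.83 to 0.76 for H2AC19, -0.26 to 0.15 for H2BC21, -0.0809 to 0.20 for H2BC15, -0.29 to 0.14 for H2BC18, -0.47 to 0.19 for H3C2, -0.54 to 0.00249 for H3C10, -0.0906 to 0.39 for H4C15, -0.11 to 0.37 for H4C1 and -0.38 to 0.0898 for H4C5. The cause was not tested. In 521 other comparisons of a value with its alternative, the call was kept, a count or percentage changed by a small factor only, or the value moved by less than the spread between libraries. A fall from 3 to 2 lower histone genes, as with limma-voom, was placed among these. Among them the H4 class ratio also changed sign, to 0.04 when corrected for GC content and length and to 0.10 when 100Q replicate 2 was left out. For 23 of the 35 tested histone genes the 95% interval reached past 2-fold. Among them were H2AC18, H2AC19 and H3C15, whose reads were assigned to different copies in different libraries. What set the width of the intervals was not tested.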
